A study of Mus musculus with 12 samples.

Results

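The 38 genes described here are markers and regulators of blood and lymph vessel endothelium, of arteries and of veins. They were chosen by symbol from a count table of 49671 genes, and all 38 were found. The study sequenced RNA from 12 mouse libraries in 4 genotypes of 3 libraries each, named in the labels as LYL1 SCL DKO (here DKO), SCL KO, LYL1 KO and WT. Its title places it in the study of Lyl1 in the formation of the first red blood cells of the embryo. Each library is labelled as a pool of embryos at embryonic day 9.5. SCL KO stands for a knockout of Tal1, the gene also called Scl, LYL1 KO for one of its relative Lyl1, and DKO for a knockout of both. The labels give no strain, no allele, no Cre line and no number of embryos per pool, and although the replicates are numbered as biological, none of the labels ties them to different litters. The p-values below therefore reflect only how far these libraries spread, which may be technical.

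Endothelial cells line vessels and are told apart from other cells by the cadherin, claudin and adhesion proteins of their junctions and by receptors for the VEGF and angiopoietin growth factors. In arteries, Notch ligands and receptors and ephrin-B2 are known for high expression, whereas veins are known for the nuclear receptor Nr2f2 and for Ephb4, the receptor of ephrin-B2. Scl and Lyl1 are related basic helix-loop-helix proteins that bind E-box DNA in blood and endothelial cells, and several endothelial genes are also expressed by megakaryocytes, platelets, blood stem cells or macrophages.

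The libraries held 24324685 to 29212443 counts. Tal1 was at 100.4, 100.1 and 77.7 CPM in DKO, 118, 117 and 93.4 CPM in SCL KO and 619, 542 and 575 CPM in LYL1 KO libraries, against 559, 643 and 513 CPM in WT libraries, where CPM are counts scaled by library total and corrected for composition (TMM). Lyl1 was at 88.3, 108 and 56.5 CPM in DKO, 210.3, 198 and 118 CPM in SCL KO and 90.4, 87.4 and 85.5 CPM in LYL1 KO libraries, against 203, 192 and 149 CPM in WT libraries. Both genes were thus lower in every library labelled as lacking them than in every WT library, and Lyl1 transcripts remained at a substantial level in those labelled LYL1 KO. Among markers of embryonic tissues, none of 7 neural progenitor genes, 1 of 7 epithelial genes and 2 of 6 heart muscle genes reached 1 CPM in any library, whereas 8 of 10 fibroblast and stroma genes and all 10 smooth muscle and pericyte genes did. The 16 megakaryocyte and platelet markers summed to 35059, 24861 and 18012 CPM in DKO, 67678, 64033 and 48219 CPM in SCL KO and 94595, 82651 and 83512 CPM in LYL1 KO libraries, against 79486, 87082 and 76039.5 CPM in WT libraries. Endothelial genes were therefore read in RNA rich in platelet transcripts, with neural, epithelial and heart muscle markers low although the labels name the embryo as the tissue.

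Of the 38 genes, 16 averaged 5 CPM or more in WT libraries and 22 averaged less. Nearest to that line were Klf2, Stab2 and Plvap at 7.54, 7.46 and 7.2 CPM above it, and Klf4 and Emcn at 4.33 and 3.84 CPM below it. All 16 of the higher class and 20 of the lower class passed the filter on low counts and were tested. Sox17, a SoxF transcription factor of arterial endothelium, and Prox1, the regulator of lymphatic endothelial identity, did not pass and have no test.

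**Figure D1:**
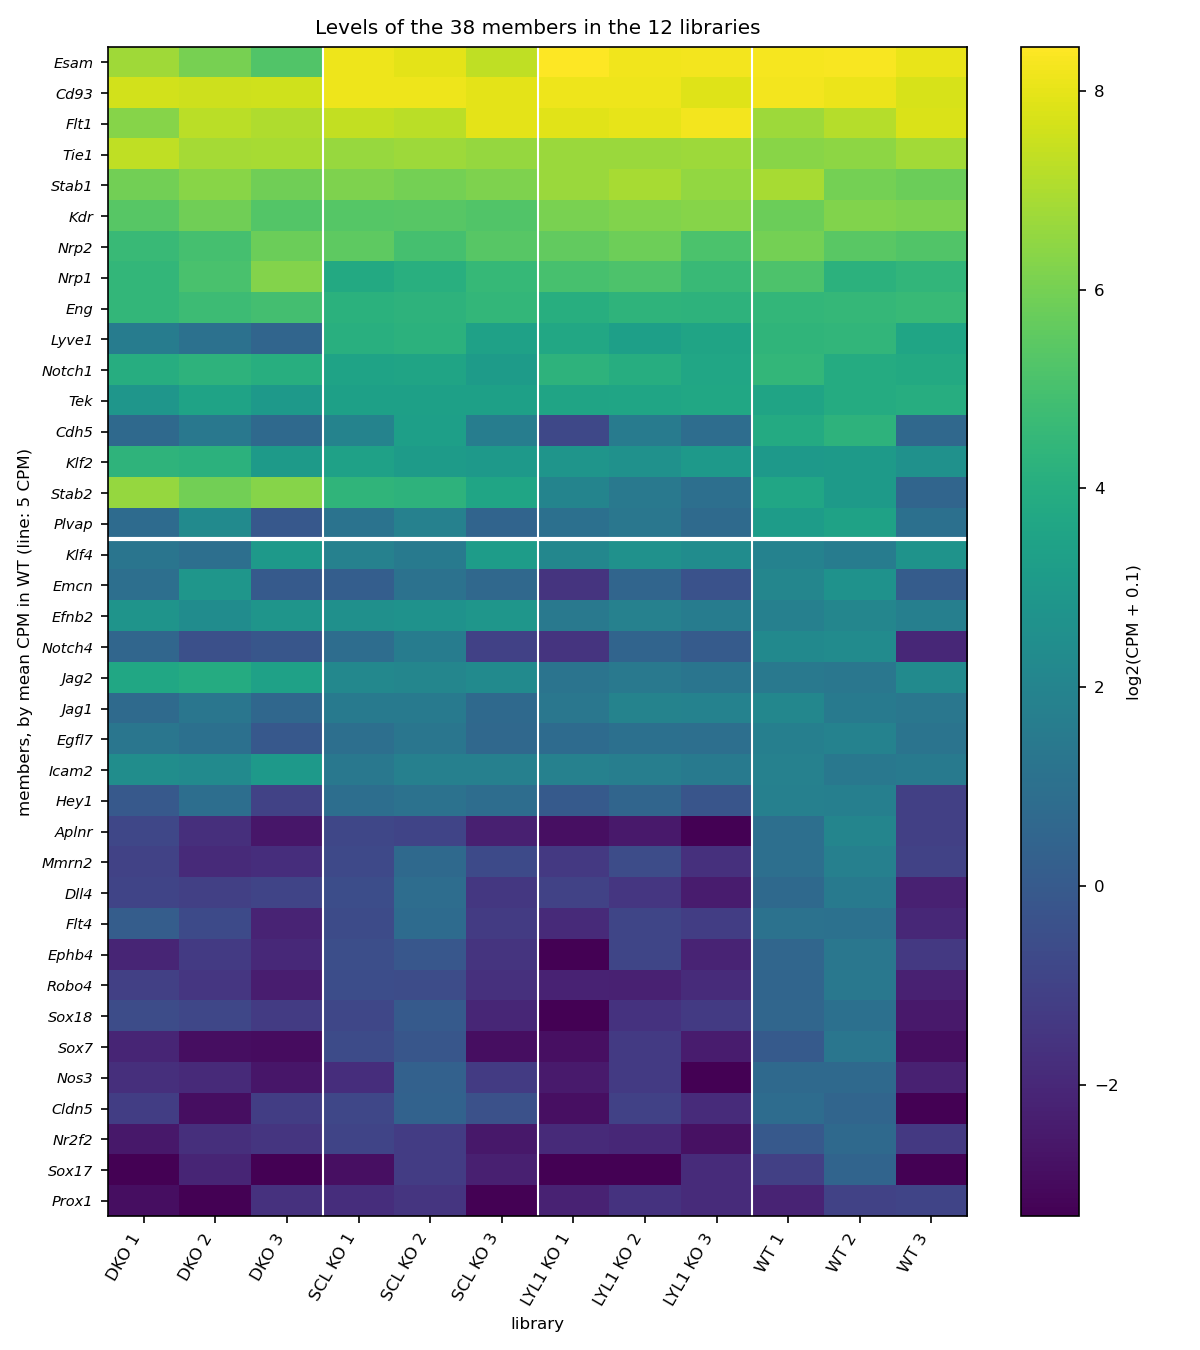
Level of the 38 genes (rows, by mean CPM in WT) in the 12 libraries (columns, DKO to WT), as log2(CPM + 0.1) in colour, with a white line at 5 CPM. The 16 genes above the line are read in every library, and most of those below it are brighter in WT 1 and WT 2 than in WT 3.

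Per kilobase of exon, the highest level in WT libraries was that of Esam, a junction adhesion molecule also known from platelets, at 104 CPM per kb. Cd93, a surface receptor also known from early blood progenitors and myeloid cells, was next at 39.1 CPM per kb, followed by Tie1 at 19, Flt1 at 11.5, Stab1 at 7.76 and Kdr at 7.4 CPM per kb. The junction genes Cdh5 and Cldn5 were lower, at 2.81 and 0.721 CPM per kb. In DKO libraries Esam and Cd93 were at 24.6 and 28.7 CPM per kb, beside Tie1 at 26.9 CPM per kb and Stab2 at 9.66 CPM per kb.

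More of the set, as of all genes, was called where both genes were knocked out than where either was. Of the 36 genes tested, 18 were called in DKO against WT (adjusted p under 0.05), beside 34.5% of all 15399 genes tested. These were 6 higher and 12 lower, beside 16.4% and 18.1% of all genes. In SCL KO against WT 2 were called, beside 5.03% of all genes, 1 higher (2.29% of all) and 1 lower (2.73% of all). In LYL1 KO against WT none was called, beside 0.0714% of all genes. Lyl1 itself, outside the set, was not called there either, although every LYL1 KO library was below every WT library for it. Relative to SCL KO, DKO libraries had 8 called genes, beside 19.1% of all genes, 5 higher (8.37% of all) and 3 lower (10.8% of all). Relative to LYL1 KO they had 11, beside 35.2%, 6 higher (17.4% of all) and 5 lower (17.9% of all). The interaction, which is the difference between DKO and SCL KO minus that between LYL1 KO and WT, was called for 5 genes, beside 9.38% of all genes, 3 positive (3.51% of all) and 2 negative (5.86% of all). The higher calls in DKO against WT were thus at the share over all genes (16.7% of the 36), and the lower calls were above it (33.3% of the 36). Some genes under 5 CPM passed the filter through libraries where they were high, WT 1 and WT 2 among them. Filtered and fitted on only the libraries compared, 4 of 32 genes were lower (12.5%), beside 13.5% of all genes, so the lower calls were not above the share there. Without WT 2 the 18 genes became 7 (19.4%), beside 24.5% of all genes in that fit, and the lower ones became 2 (5.56%), beside 13.3%. On leaving out any 1 SCL KO library none was called in SCL KO against WT, beside 2.63% to 3.22% of all genes.

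**Figure D2:**
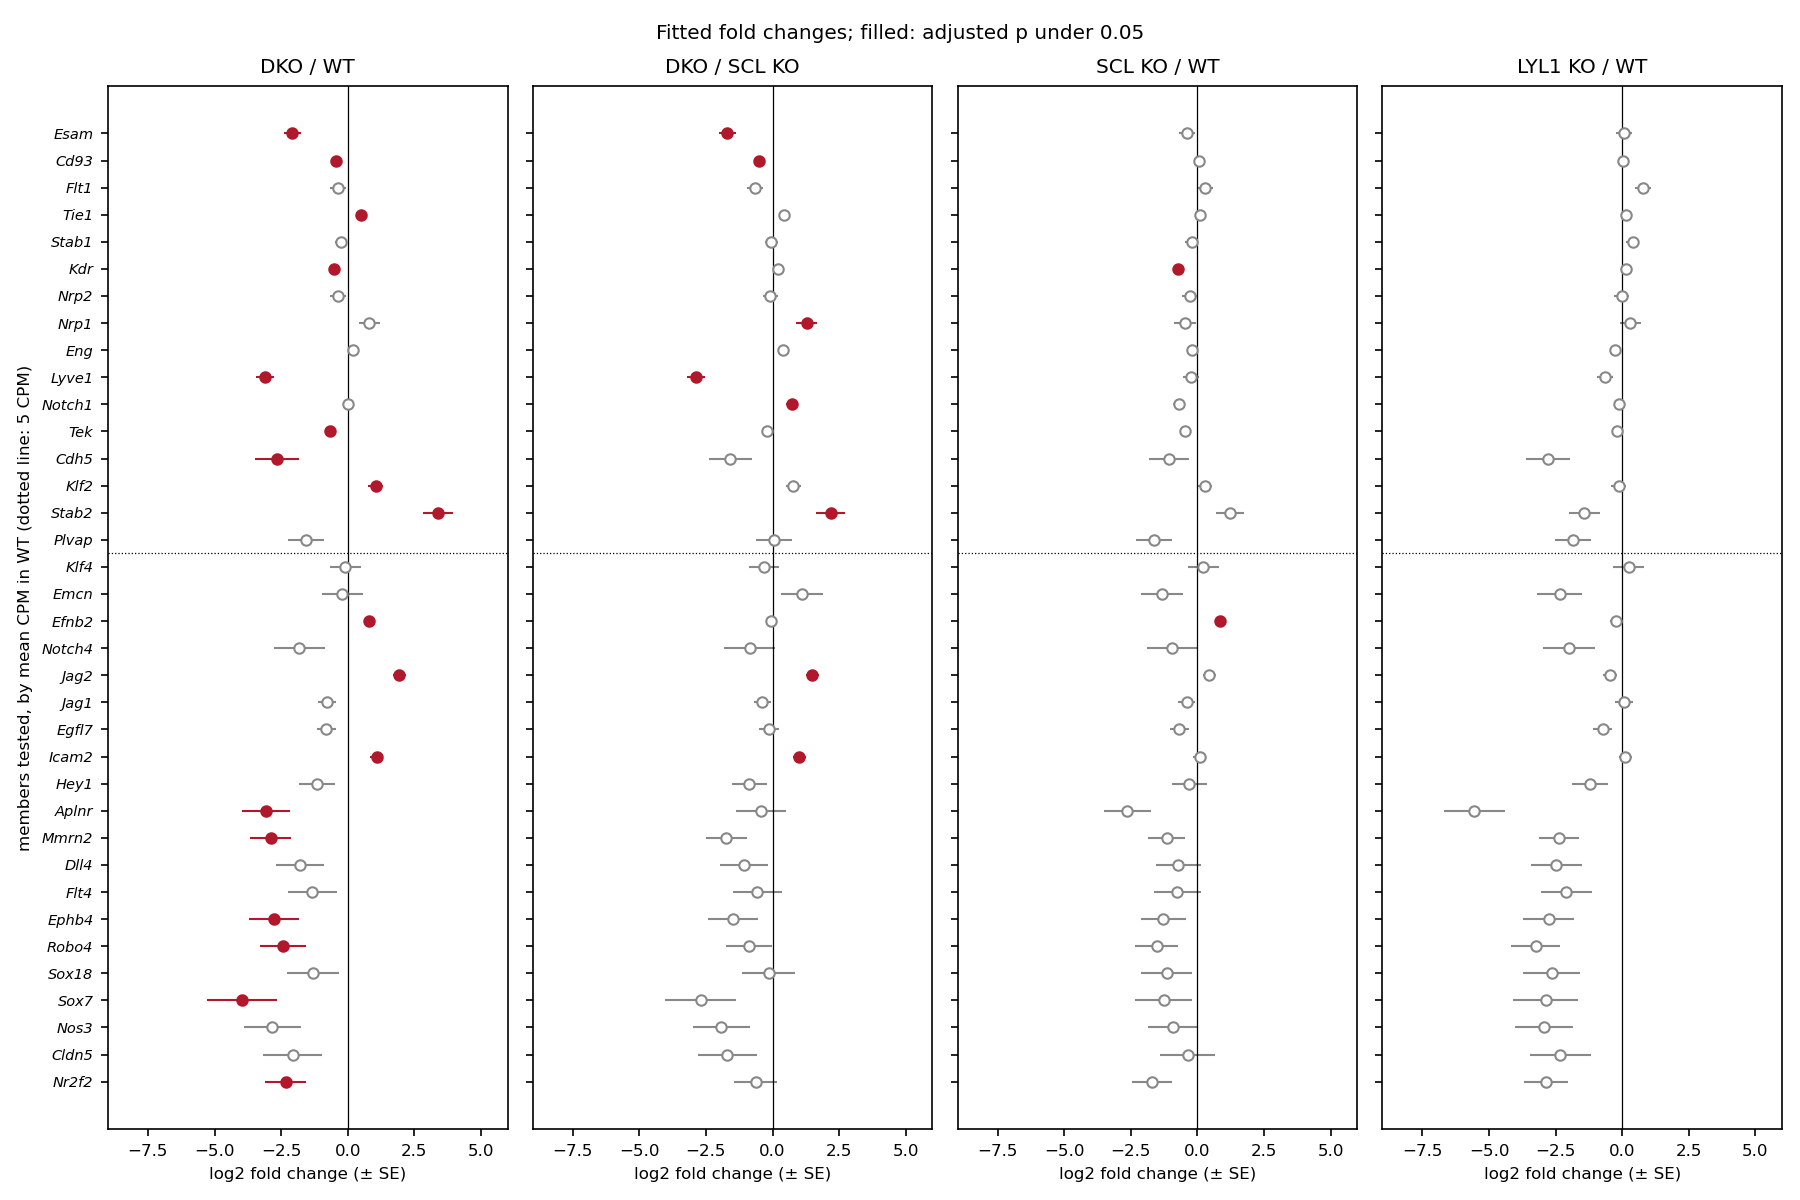
Fitted log2 fold change ± SE of the 36 genes tested (rows, by mean CPM in WT, dotted line at 5 CPM) in 4 comparisons, filled where the adjusted p is under 0.05. DKO against WT has 18 filled points, DKO against SCL KO 8, SCL KO against WT 2 and LYL1 KO against WT none, and the bars are widest for genes below the line.

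The start regions of 4 genes are shown because the comparisons turn on them. Stab2 and Jag2 had the highest fold changes in DKO against WT, and Kdr and Efnb2 were the genes called in SCL KO against WT. Each sequence runs from 250 bases before to 50 bases after the start site of a RefSeq transcript, on the gene's own strand, which is the minus strand for all 4, from RefSeq on GRCm38.p6. Capitals mark the letters CAGNTG, a form of the E-box, on either strand. The regions are chr10:87007893-87008192 for Stab2, chr12:112929446-112929745 for Jag2, chr5:75978406-75978705 for Kdr and chr8:8661193-8661492 for Efnb2.
Stab2: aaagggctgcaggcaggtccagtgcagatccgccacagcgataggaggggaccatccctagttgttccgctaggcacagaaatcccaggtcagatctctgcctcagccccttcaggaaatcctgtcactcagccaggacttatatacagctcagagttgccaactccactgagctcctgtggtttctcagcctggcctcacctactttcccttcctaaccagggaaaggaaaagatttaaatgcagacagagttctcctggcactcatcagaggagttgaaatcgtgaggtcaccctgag
Jag2: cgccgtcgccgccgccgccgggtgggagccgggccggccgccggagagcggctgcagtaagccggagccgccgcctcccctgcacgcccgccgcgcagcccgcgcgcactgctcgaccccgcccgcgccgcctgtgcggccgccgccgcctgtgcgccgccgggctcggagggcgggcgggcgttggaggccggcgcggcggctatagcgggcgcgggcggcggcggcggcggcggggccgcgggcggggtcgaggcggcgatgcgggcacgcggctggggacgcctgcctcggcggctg
Kdr: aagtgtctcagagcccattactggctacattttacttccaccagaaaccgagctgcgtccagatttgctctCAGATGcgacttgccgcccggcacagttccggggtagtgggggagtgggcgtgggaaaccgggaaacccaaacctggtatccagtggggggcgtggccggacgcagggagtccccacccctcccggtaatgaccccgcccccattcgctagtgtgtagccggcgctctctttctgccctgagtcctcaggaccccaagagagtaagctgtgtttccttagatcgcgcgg
Efnb2: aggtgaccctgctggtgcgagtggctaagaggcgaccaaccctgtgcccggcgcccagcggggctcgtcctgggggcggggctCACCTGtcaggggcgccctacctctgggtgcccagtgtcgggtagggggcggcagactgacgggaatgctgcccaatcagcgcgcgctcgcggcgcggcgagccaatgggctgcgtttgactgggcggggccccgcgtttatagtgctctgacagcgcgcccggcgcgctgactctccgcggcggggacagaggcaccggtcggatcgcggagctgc

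Kdr held 1 match, 179 bases before the start site, and Efnb2 held 1, 167 bases before it and on the opposite strand, whereas these letters were not in the windows of Stab2 and Jag2. RefSeq start regions were matched to 25 of the 38 genes, 28 regions in all. CAGNTG was in 13 of these 28 (46.4%), against 51.5% of 32544 mouse start regions of the same length. On either strand, the GATA letters AGATAA were in 1 of 28, against 11.2% of all. The ETS letters CCGGAAG were in 0 of 28, against 8.91%, and CAGGAAG in 6 of 28 (21.4%), against 13.3%. The KLF letters CACACCC were in 2 of 28 (7.14%), against 7.98%. The E-box and KLF shares were near those of all regions, and a match describes letters in the window and nothing more.

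Among receptors of vessel growth factors, Kdr (chr5:75932827-75978458 on GRCm38), the main VEGF receptor of endothelium, was lower without Scl and without both genes. It was at 42, 58.8 and 38.5 CPM in DKO and 40.3, 41.7 and 37.6 CPM in SCL KO libraries, against 67.6, 73.3 and 77.7 CPM in LYL1 KO and 55.8, 74.8 and 69.8 CPM in WT libraries. No SCL KO library reached the lowest WT library, and 1 DKO library did. On the log2 scale, the fold change was -0.74 ± 0.15 (adjusted p = 0.0163) for SCL KO against WT, -0.52 ± 0.15 (adjusted p = 0.0205) for DKO against WT and -0.65 ± 0.15 (adjusted p = 0.00626) for DKO against LYL1 KO. The call against WT was lost for SCL KO on leaving out any 1 SCL KO library or WT 2 (adjusted p 0.0526 to 0.0812), and for DKO on leaving out DKO 1, DKO 3 or WT 2 (adjusted p 0.0598 to 0.0982).

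Tie1, an orphan receptor that partners the angiopoietin receptor, rose in DKO. It was at 161, 117 and 119 CPM in DKO, 99.3, 104 and 94.7 CPM in SCL KO and 103, 101 and 106 CPM in LYL1 KO libraries, against 80.3, 88.1 and 112 CPM in WT libraries. The 3 DKO libraries were above all others, WT 3 being the nearest WT library. The log2 fold change against WT was 0.50 ± 0.14 (adjusted p = 0.0174), lost without DKO 1, WT 1 or WT 2 (adjusted p 0.0584 to 0.0689). Tie1 lies 3.4 Mb from Tal1 on chromosome 4, and the part of this position in the result was not tested. Tek, the angiopoietin receptor itself, went the other way, at 7.23, 11.1 and 8.11 CPM in DKO and 10.1, 10.3 and 10.3 CPM in SCL KO, against 11.7, 12 and 12.8 CPM in LYL1 KO libraries and 11.4, 15.2 and 15.7 CPM in WT libraries. All DKO libraries lay below all WT libraries, with a log2 fold change of -0.68 ± 0.17 (adjusted p = 0.0107), and without WT 2 the adjusted p was 0.0502.

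Flt1, the VEGF receptor that also acts as a decoy, spread widely within genotypes. It was at 77.6, 149.5 and 133 CPM in DKO and 167, 151 and 248 CPM in SCL KO libraries, against 241, 259 and 299 CPM in LYL1 KO libraries and 105, 139.8 and 221 CPM in WT libraries. DKO libraries lay below all LYL1 KO libraries, and those 2 genotypes differed by a log2 fold change of -1.15 ± 0.29 (adjusted p = 0.00972). The DKO range overlapped the WT range, and the WT range overlapped that of SCL KO.

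Eng, the endothelial co-receptor of TGF beta and BMP, had 22.1, 26.3 and 29.9 CPM in DKO and 18, 19.4 and 21.9 CPM in SCL KO, against 16.5, 20.1 and 19.6 CPM in LYL1 KO libraries and 21.7, 22.4 and 24.1 CPM in WT libraries. DKO libraries were above every single-knockout library and overlapped WT, where the lowest level was above the highest LYL1 KO level. The call was against LYL1 KO, at 0.48 ± 0.14 (adjusted p = 0.0164), and ended without DKO 3 (adjusted p = 0.0668) or LYL1 KO 1 (adjusted p = 0.089). Its interaction was 0.68 ± 0.19 (adjusted p = 0.0464), lost in 10 of the 12 fits that leave out 1 library (adjusted p 0.0734 to 0.133), all except those without DKO 1 or SCL KO 3.

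Nrp1 and Nrp2 are neuropilins, co-receptors for VEGF and semaphorins, known for arterial and venous or lymphatic vessels. Nrp1 was at 22.1, 32.9 and 77.4 CPM in DKO and 14.2, 17.1 and 23.4 CPM in SCL KO, against 32.6, 35.4 and 25.2 CPM in LYL1 KO libraries and 35.8, 18.9 and 21 CPM in WT libraries. DKO 3 stood apart above all other libraries. DKO against SCL KO had a log2 fold change of 1.28 ± 0.40 (adjusted p = 0.0447), and without DKO 3 the value was 0.58 (adjusted p = 0.226). The adjusted p was 0.0573 to 0.226 over the fits that lost the call, those without DKO 2, DKO 3, SCL KO 1 or SCL KO 2. With the replicate number as a block, although the labels state no pairing, the adjusted p was 0.0849. Nrp2 was not called in any comparison, at 24.7, 31.6 and 56.1 CPM in DKO, 46, 30.8 and 42 CPM in SCL KO, 49.6, 57.4 and 34.5 CPM in LYL1 KO libraries and 62.6, 43.4 and 38 CPM in WT libraries, and its ranges overlapped. Flt4, the VEGF-C receptor of lymphatic and early venous endothelium, reached at most 2.08 CPM and was not called.

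Aplnr, the apelin receptor of venous and sprouting endothelium, was sparse and lower in DKO. It was at 0.469, 0.199 and 0.0624 CPM in DKO, 0.464, 0.428 and 0.105 CPM in SCL KO and 0.0405, 0.0753 and 0 CPM in LYL1 KO libraries, against 1.87, 4.01 and 0.365 CPM in WT libraries. WT 1 and WT 2 were above all other libraries, while WT 3 was below DKO 1 and below SCL KO 1 and SCL KO 2. DKO against WT had a log2 fold change of -3.08 ± 0.90 (adjusted p = 0.0204), lost without DKO 2, DKO 3 or WT 2 (adjusted p 0.0576 to 0.11). The value was -2.16 without WT 2 and -3.96 without DKO 1. In bulk RNA, fewer cells with a transcript and less of it per cell cannot be told apart, here and for every gene above and below. The cell type that each transcript came from cannot be told either.

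Of 9 listed ligands of these receptors and of the apelin and Tie systems, 8 were tested, and in DKO against WT 2 rose and 3 fell, beside 16.4% and 18.1% of all genes. Vegfa, the main ligand of Kdr, was at 84, 109 and 69.4 CPM in DKO, 30.5, 31.5 and 29.6 CPM in SCL KO and 31.1, 38.8 and 30.8 CPM in LYL1 KO libraries, against 41.7, 29.2 and 31.5 CPM in WT libraries. All 3 DKO libraries were above all others (log2 fold change 1.36 ± 0.17 (adjusted p = 0.000113)). Vegfc, the ligand of Flt4, was at 2.91, 2.89 and 2.47 CPM in DKO and 8.32, 6.81 and 4.3 CPM in SCL KO, against 27.6, 24.2 and 32.7 CPM in LYL1 KO libraries and 15.8, 27.1 and 21.5 CPM in WT libraries. Both genotypes without Scl were below the others, with log2 fold changes against WT of -2.96 ± 0.26 (adjusted p = 9.01e-06) for DKO and -1.73 ± 0.25 (adjusted p = 0.00193) for SCL KO. Angpt1, the ligand of Tek, averaged 322 ± 70.7 CPM in DKO and 523 ± 52 CPM in WT libraries (SD, n = 3 each), a log2 fold change of -0.70 ± 0.15 (adjusted p = 0.00374). Vegfd, at 0.809 ± 0.195 CPM in DKO and 0.07 ± 0.0864 CPM in WT libraries, had a log2 fold change of 3.48 ± 0.98 (adjusted p = 0.0164), and the adjusted p was 0.0645 without WT 2, while the value was 5.03 without WT 1 and 2.87 without WT 3. Vegfb, at 4.76 ± 1.4 CPM in DKO and 8.9 ± 0.783 CPM in LYL1 KO libraries, was called between these 2 (-0.90 ± 0.27 (adjusted p = 0.023)), and not without DKO 1, DKO 2, LYL1 KO 1 or LYL1 KO 3 (adjusted p 0.0504 to 0.0876).

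**Figure D3:**
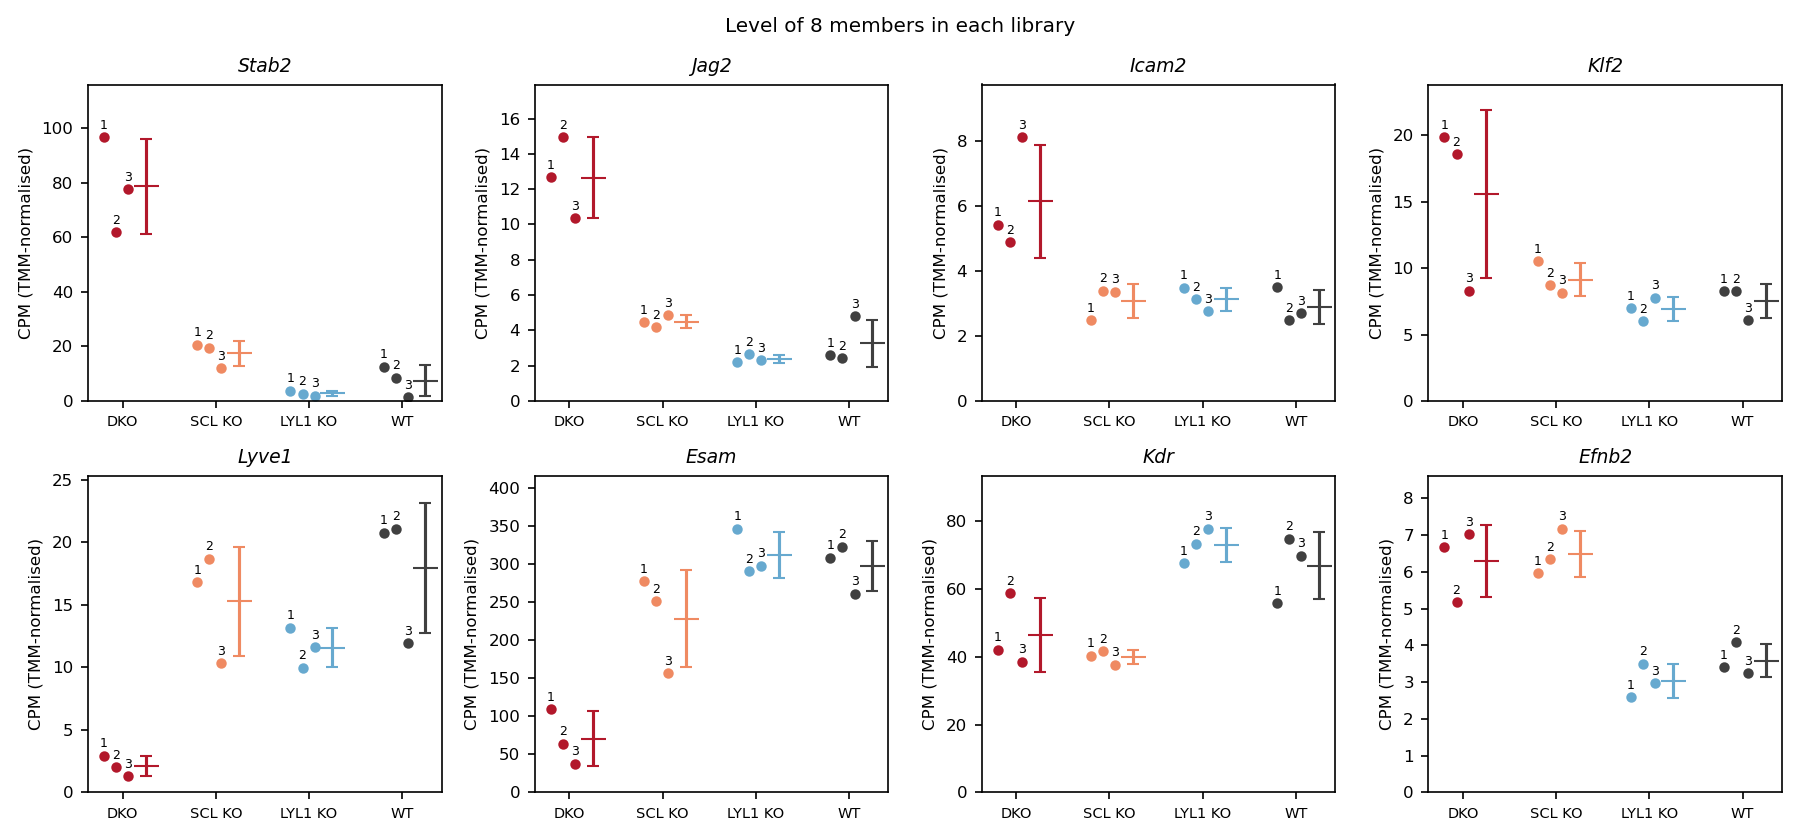
TMM-normalised CPM of 8 genes in each library (points, numbered by replicate) with the mean ± SD of each genotype (bars, n = 3). Stab2 and Jag2 are highest in the 3 DKO libraries, Lyve1 and Esam are lowest there, Efnb2 is higher in all 6 libraries without Scl than in the other 6, and Kdr is lower in SCL KO than in WT with DKO 2 reaching the WT range.

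Among junction and surface genes, Esam (chr9:37528078-37538319) fell in DKO. It was at 109, 64.3 and 38 CPM in DKO and 278, 251 and 157 CPM in SCL KO libraries, against 347, 291 and 299 CPM in LYL1 KO libraries and 309, 324 and 261 CPM in WT libraries. The highest DKO library was below the lowest of the other 9, and SCL KO 3 was lower than the remaining 8. Its fitted log2 fold change was -2.08 ± 0.32 (adjusted p = 0.000409) against WT, -2.14 ± 0.32 (adjusted p = 0.000306) against LYL1 KO and -1.70 ± 0.32 (adjusted p = 0.00306) against SCL KO, and each call held on leaving out any 1 library. Its interaction was -1.76 ± 0.44 (adjusted p = 0.0281), lost in 8 of the 12 fits that leave out 1 library (adjusted p 0.0503 to 0.0739): those without DKO 2, SCL KO 1, SCL KO 2, LYL1 KO 1, LYL1 KO 3 or any 1 WT library. In the same comparison, DKO against WT, 14 of 16 megakaryocyte and platelet markers fell, beside 18.1% of all genes. Within DKO the sum of these markers, like Esam, was highest in DKO 1 and lowest in DKO 3. The part of these markers in the Esam result was not tested.

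Cd93 was at 196, 188 and 189.8 CPM in DKO, 279, 279 and 251 CPM in SCL KO and 279, 279 and 236 CPM in LYL1 KO libraries, against 302, 272 and 209 CPM in WT libraries. DKO libraries lay below all others in a narrow range. The log2 fold change was -0.45 ± 0.13 (adjusted p = 0.0192) against WT, -0.50 ± 0.13 (adjusted p = 0.0198) against SCL KO and -0.47 ± 0.13 (adjusted p = 0.015) against LYL1 KO. Against WT the call was lost without DKO 2, WT 1 or WT 2 (adjusted p 0.0573 to 0.0844), against SCL KO without DKO 2, SCL KO 1 or SCL KO 2 (0.0646 to 0.0725), and against LYL1 KO without DKO 2, LYL1 KO 1 or LYL1 KO 2 (0.0503 to 0.0526).

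Icam2 (chr11:106377656-106388075), an adhesion molecule of endothelium and platelets, rose in DKO. It was at 5.43, 4.88 and 8.11 CPM in DKO, 2.48, 3.39 and 3.36 CPM in SCL KO and 3.48, 3.13 and 2.76 CPM in LYL1 KO libraries, against 3.5, 2.48 and 2.7 CPM in WT libraries. Each DKO library was above all 9 others. On the log2 scale, its fold change was 1.09 ± 0.25 (adjusted p = 0.00534) against WT, 0.97 ± 0.25 (adjusted p = 0.00917) against LYL1 KO and 1.00 ± 0.25 (adjusted p = 0.0151) against SCL KO, the last lost without DKO 3 (adjusted p = 0.0618) or SCL KO 1 (adjusted p = 0.0817).

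Cdh5, the cadherin that joins endothelial cells, split the WT libraries. It was at 1.54, 2.56 and 1.5 CPM in DKO, 3.79, 9.99 and 3.04 CPM in SCL KO and 0.486, 2.82 and 1.74 CPM in LYL1 KO libraries, against 14.3, 19.7 and 1.46 CPM in WT libraries. WT 1 and WT 2 were the highest of the 12, whereas WT 3 was below all DKO libraries. The log2 fold change of DKO against WT was -2.66 ± 0.81 (adjusted p = 0.0252), and it was lost on leaving out any 1 DKO library, WT 1 or WT 2 (adjusted p 0.0505 to 0.103), with -2.05 without WT 2. With WT 3 alone in the WT group the value was 0.36.

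Mmrn2, an endothelial matrix ligand of Cd93, and Robo4, a guidance receptor of endothelium, had the same split. Mmrn2 was at 0.402, 0.166 and 0.187 CPM in DKO, 0.503, 1.5 and 0.525 CPM in SCL KO and 0.284, 0.565 and 0.213 CPM in LYL1 KO libraries, against 1.87, 3.4 and 0.401 CPM in WT libraries. Robo4 was at 0.368, 0.266 and 0.0936 CPM in DKO, 0.58, 0.571 and 0.21 CPM in SCL KO and 0.122, 0.113 and 0.17 CPM in LYL1 KO libraries, against 1.33, 2.53 and 0.109 CPM in WT libraries. WT 3 was level with the highest DKO library for Mmrn2 and near the lowest for Robo4. In DKO against WT the log2 fold change was -2.88 ± 0.77 (adjusted p = 0.0127) for Mmrn2, lost without DKO 2 or WT 2 (adjusted p 0.0501 to 0.0653), with -2.13 without WT 2. For Robo4 it was -2.42 ± 0.85 (adjusted p = 0.0454), lost without any 1 DKO library, WT 1 or WT 2 (adjusted p 0.0604 to 0.23), with -1.52 without WT 2.

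The other junction and surface genes were not called. Plvap, the diaphragm protein of fenestrae and caveolae, was at 1.61, 4.78 and 0.843 CPM in DKO, 2.13, 3.53 and 1.29 CPM in SCL KO and 1.94, 2.41 and 1.57 CPM in LYL1 KO libraries, against 8.91, 10.8 and 1.9 CPM in WT libraries. Emcn, the sialomucin of veins and capillaries, was at 1.88, 7.14 and 0.905 CPM in DKO, 1.04, 2.03 and 1.47 CPM in SCL KO and 0.243, 1.32 and 0.681 CPM in LYL1 KO libraries, against 4.16, 6.36 and 0.984 CPM in WT libraries. WT 1 and WT 2 were the highest libraries for Plvap, and DKO 2 was the highest for Emcn. Cldn5, the tight junction claudin of endothelium, was at 0.335, 0.0332 and 0.343 CPM in DKO, 0.464, 1.21 and 0.665 CPM in SCL KO and 0.0405, 0.377 and 0.17 CPM in LYL1 KO libraries, against 1.71, 1.35 and 0 CPM in WT libraries. Its count in WT 3 was 0, which allows up to 0.109 CPM at that library's depth.

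Of the enzymes and secreted factors, Egfl7, a secreted endothelial protein, was at 2.38, 1.93 and 0.843 CPM in DKO, 1.86, 2.32 and 1.47 CPM in SCL KO and 1.62, 1.96 and 1.87 CPM in LYL1 KO libraries, against 3.25, 3.57 and 2.22 CPM in WT libraries. It was not called, and DKO 1 lay above WT 3. Nos3, the endothelial nitric oxide synthase, reached at most 1.53 CPM and was not called.

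Scavenger receptor genes of sinusoidal and lymphatic endothelium did not move one way in DKO. Stab2 (chr10:86841203-87007942), a hyaluronan and clearance receptor of sinusoids, rose in DKO to 96.6, 61.7 and 77.7 CPM, against 20.7, 19.5 and 12 CPM in SCL KO, 3.81, 2.64 and 1.87 CPM in LYL1 KO libraries and 12.5, 8.5 and 1.35 CPM in WT libraries. Every DKO library was above every other library, all SCL KO libraries were above all LYL1 KO libraries, and WT 1 overlapped SCL KO. The DKO mean was 10.5 times the WT mean. It had a log2 fold change of 3.41 ± 0.56 (adjusted p = 0.000663) against WT, 4.82 ± 0.61 (adjusted p = 9.67e-05) against LYL1 KO and 2.18 ± 0.53 (adjusted p = 0.0138) against SCL KO, with an interaction of 3.59 ± 0.78 (adjusted p = 0.0158). All 4 calls held on leaving out any 1 library. Without WT 1 the value against WT was 4.01 and the interaction 2.99. With no filter on low counts the adjusted p was 0.0772 against SCL KO and 0.0805 for the interaction.

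Lyve1 (chr7:110850607-110863239), the hyaluronan receptor of lymphatic endothelium and some macrophages, went the other way. It was at 2.95, 2.03 and 1.31 CPM in DKO, against 16.8, 18.7 and 10.4 CPM in SCL KO, 13.2, 9.98 and 11.6 CPM in LYL1 KO libraries and 20.8, 21.1 and 11.9 CPM in WT libraries. No DKO library reached the lowest of the other 9, and WT 3 lay within the LYL1 KO range. The log2 fold change was -3.10 ± 0.33 (adjusted p = 3.34e-05) against WT, -2.87 ± 0.33 (adjusted p = 0.000188) against SCL KO and -2.47 ± 0.33 (adjusted p = 0.000132) against LYL1 KO. The interaction was -2.24 ± 0.44 (adjusted p = 0.00983), and all 4 calls held on leaving out any 1 library.

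Stab1, the relative of Stab2 that is also found in macrophages, was not called, at 60.2, 81 and 59.4 CPM in DKO, 70.6, 64.1 and 72.3 CPM in SCL KO and 101, 120.3 and 91.8 CPM in LYL1 KO libraries, against 120.0, 63.7 and 55.7 CPM in WT libraries. WT 1 stood apart from WT 2 and WT 3 for Stab1. The 14 macrophage and myeloid markers summed to 3567, 3804 and 4134 CPM in DKO, 4013, 4578 and 5301 CPM in SCL KO and 7805, 8078 and 5406 CPM in LYL1 KO libraries, against 7510.1, 4594 and 4385 CPM in WT libraries, with WT 1 likewise highest of the WT libraries. Of these markers 4 of 14 fell and none rose in DKO against WT, beside 18.1% and 16.4% of all genes. The part of these markers in the Lyve1 and Stab1 levels was not tested. Prox1 was at most 0.44 CPM in any library, so the lymphatic regulator itself was near the limit of reading.

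Among arterial and Notch genes, Jag2 (chr12:112908590-112929495), a Notch ligand, rose in DKO. It was at 12.7, 14.9 and 10.4 CPM in DKO, against 4.45, 4.17 and 4.86 CPM in SCL KO, 2.19, 2.64 and 2.3 CPM in LYL1 KO libraries and 2.58, 2.44 and 4.81 CPM in WT libraries. Each DKO library was above all 9 others, and WT 3 was level with SCL KO. Fitted values, as log2 fold changes, were 1.94 ± 0.26 (adjusted p = 0.000138) against WT, 2.41 ± 0.26 (adjusted p = 3.27e-05) against LYL1 KO and 1.49 ± 0.25 (adjusted p = 0.00178) against SCL KO, with an interaction of 1.96 ± 0.36 (adjusted p = 0.00752). Each call held on leaving out any 1 library.

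Efnb2 (chr8:8617434-8661242), the arterial ephrin, was higher in both genotypes without Scl. It was at 6.66, 5.18 and 7.02 CPM in DKO and 5.96, 6.35 and 7.17 CPM in SCL KO libraries, against 2.59, 3.5 and 2.98 CPM in LYL1 KO libraries and 3.41, 4.1 and 3.24 CPM in WT libraries. None of the 6 libraries without Scl overlapped the 6 with it. The log2 fold change was 0.81 ± 0.19 (adjusted p = 0.00711) for DKO and 0.86 ± 0.19 (adjusted p = 0.0261) for SCL KO against WT, and 1.05 ± 0.20 (adjusted p = 0.00138) for DKO against LYL1 KO. The SCL KO call was lost without any 1 SCL KO library, WT 1 or WT 3 (adjusted p 0.0554 to 0.0967), and the DKO call against WT held on leaving out any 1 library.

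Notch1, the receptor, was at 15.8, 19.3 and 16.2 CPM in DKO and 11.2, 11.6 and 8.57 CPM in SCL KO, against 19.1, 15.8 and 12.4 CPM in LYL1 KO libraries and 21.9, 15 and 13.9 CPM in WT libraries. SCL KO libraries were below all others. DKO against SCL KO had a log2 fold change of 0.71 ± 0.21 (adjusted p = 0.0338), lost without DKO 2, DKO 3 or any 1 SCL KO library (adjusted p 0.0532 to 0.111). Notch4, the endothelial Notch receptor, was at 1.37, 0.631 and 0.78 CPM in DKO, 1.74, 2.93 and 0.385 CPM in SCL KO and 0.243, 1.28 and 0.936 CPM in LYL1 KO libraries, against 4.7, 5.01 and 0.146 CPM in WT libraries, and was not called. Jag1, the other ligand of this kind, was at 1.57, 2.39 and 1.44 CPM in DKO, 2.71, 2.82 and 1.5 CPM in SCL KO and 2.47, 3.73 and 3.62 CPM in LYL1 KO libraries, against 4.21, 2.7 and 2.41 CPM in WT libraries, without a call. WT 3 was the lowest of the 12 libraries for Notch4, whereas for Jag1 it was level with DKO 2. The arterial ligand Dll4 and the arterial Notch target Hey1 reached at most 2.66 and 3.33 CPM and were not called.

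Outside the set, 17 further Notch pathway genes were tested, and in DKO against WT 3 rose and 5 fell, beside 16.4% and 18.1% of all genes. Rbpj, the DNA-binding partner of Notch, was at 86.2, 63.8 and 57.5 CPM in DKO and 79.5, 73.5 and 72.4 CPM in SCL KO, against 31.2, 31.7 and 36.5 CPM in LYL1 KO libraries and 37.9, 39.1 and 35.4 CPM in WT libraries. It did not overlap between genotypes with and without Scl, with log2 fold changes of 0.88 ± 0.14 (adjusted p = 0.000403) for DKO and 1.00 ± 0.14 (adjusted p = 0.00133) for SCL KO against WT. Hes1, a Notch target, averaged 18 ± 7.09 CPM in DKO and 6.44 ± 2.4 CPM in WT libraries, with a log2 fold change of 1.48 ± 0.33 (adjusted p = 0.00492). The receptor-cutting proteases Adam17 and Adam10 fell in DKO against WT, with log2 fold changes of -0.61 ± 0.11 (adjusted p = 0.000997) and -0.73 ± 0.19 (adjusted p = 0.0117), the second with an adjusted p of 0.0512 without WT 2. Maml2, a co-activator, had a log2 fold change of -0.88 ± 0.23 (adjusted p = 0.0124), with an adjusted p of 0.0617 without WT 1.

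Venous genes were both sparse. Nr2f2, the venous nuclear receptor, was at 0.067, 0.199 and 0.25 CPM in DKO, 0.425, 0.321 and 0.07 CPM in SCL KO and 0.162, 0.151 and 0.0425 CPM in LYL1 KO libraries, against 0.874, 1.53 and 0.292 CPM in WT libraries. Ephb4, the venous receptor of ephrin-B2, was at 0.134, 0.299 and 0.156 CPM in DKO, 0.619, 0.82 and 0.245 CPM in SCL KO and 0, 0.452 and 0.128 CPM in LYL1 KO libraries, against 1.37, 2.44 and 0.292 CPM in WT libraries. For both, WT 1 and WT 2 were above all knockouts, and WT 3 was within the SCL KO range. In DKO against WT the log2 fold change was -2.34 ± 0.77 (adjusted p = 0.0341) for Nr2f2, lost without DKO 1, DKO 2, WT 1 or WT 2 (adjusted p 0.0723 to 0.157). For Ephb4 it was -2.77 ± 0.94 (adjusted p = 0.0386), lost without any 1 DKO library, WT 1 or WT 2 (adjusted p 0.0665 to 0.162). Without WT 2 these values were -1.69 for Nr2f2 and -2.03 for Ephb4.

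The SoxF factors, which act early in endothelial and arterial fate, were as sparse. Sox7 was at 0.134, 0.0332 and 0.0312 CPM in DKO, 0.542, 0.785 and 0.035 CPM in SCL KO and 0.0405, 0.301 and 0.0851 CPM in LYL1 KO libraries, against 0.916, 2.35 and 0.0365 CPM in WT libraries. WT 3 lay among the lowest of all 12 libraries. In DKO against WT the log2 fold change was -3.97 ± 1.31 (adjusted p = 0.0347), lost without any 1 DKO library, WT 1 or WT 2 (adjusted p 0.0501 to 0.165). The value was -2.73 without WT 2, -4.55 without WT 3 and -4.90 without DKO 1. Sox18 reached at most 1.92 CPM and was not called, and Sox17 reached at most 1.26 CPM.

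Klf2 (chr8:72319033-72321656), a factor induced by blood flow, rose in DKO. It was at 19.9, 18.6 and 8.3 CPM in DKO, 10.5, 8.7 and 8.15 CPM in SCL KO and 6.97, 6.03 and 7.78 CPM in LYL1 KO libraries, against 8.24, 8.28 and 6.09 CPM in WT libraries. DKO 1 and DKO 2 were above all other libraries, and DKO 3 was just above the highest WT library and within the SCL KO range. On the log2 scale, the fold change was 1.05 ± 0.28 (adjusted p = 0.013) against WT and 1.17 ± 0.28 (adjusted p = 0.00687) against LYL1 KO, and both calls held on leaving out any 1 library. Klf2 lies 12.38 Mb from Lyl1 on chromosome 8, with Plvap at 13.19, Cdh5 at 19.4, Nrp1 at 43.65 and Efnb2 at 76.04 Mb. Tek and Klf4 lie 20.18 and 59.52 Mb from Tal1 on chromosome 4. The part of these positions in the results was not tested. Klf4, the relative of Klf2, was not called, at 2.24, 1.86 and 8.11 CPM in DKO, 3.44, 2.71 and 9.03 CPM in SCL KO and 4.25, 6.03 and 5.19 CPM in LYL1 KO libraries, against 3.66, 2.92 and 6.42 CPM in WT libraries. Replicate 3 was the highest library of the DKO, SCL KO and WT groups for Klf4.

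Of 14 further transcription factors of endothelium and its blood-forming precursors tested, 3 rose and 7 fell in DKO against WT, beside 34.5% of all genes called, and the 7 include Tal1 and Lyl1, the knocked-out genes. In SCL KO against WT 1 rose and 4 fell, Tal1 among them, beside 5.03% of all genes, and 9 of the 14 were not called. Hhex, a homeobox factor, was at 5.19, 10.2 and 7.8 CPM in DKO and 10.1, 9.85 and 10.2 CPM in SCL KO, against 54.4, 45.6 and 52.9 CPM in LYL1 KO libraries and 45.3, 51.8 and 42.1 CPM in WT libraries. Gata2, a blood and endothelial factor, averaged 21 ± 6.69 CPM in DKO and 23.7 ± 7.41 CPM in SCL KO, against 79.9 ± 5.55 CPM in WT libraries (SD, n = 3 each). Both fell against WT, Hhex with log2 fold changes of -2.58 ± 0.20 (adjusted p = 3.28e-06) in DKO and -2.21 ± 0.20 (adjusted p = 8.1e-05) in SCL KO, and Gata2 with -1.93 ± 0.27 (adjusted p = 0.000188) in DKO and -1.75 ± 0.26 (adjusted p = 0.00271) in SCL KO. Lmo2, the bridging partner of Scl, rose, at 549, 462 and 436 CPM in DKO and 336, 334 and 360.0 CPM in SCL KO, against 176, 179.9 and 189 CPM in LYL1 KO libraries and 169.9, 184 and 212 CPM in WT libraries. Its log2 fold change against WT was 1.35 ± 0.12 (adjusted p = 6.58e-06) in DKO and 0.86 ± 0.11 (adjusted p = 0.00118) in SCL KO. Foxo1, a factor of vessel quiescence, had a log2 fold change of 1.12 ± 0.15 (adjusted p = 0.000133) in DKO against WT. Of 13 BMP and TGF beta genes tested, 2 rose and 1 fell in DKO against WT, beside 34.5% of all genes called. The log2 fold changes were 1.19 ± 0.16 (adjusted p = 0.000129) for Smad1, 1.49 ± 0.47 (adjusted p = 0.0285) for Smad7 and -1.30 ± 0.16 (adjusted p = 6.63e-05) for Tgfb1. Smad7 lost its call without DKO 2, DKO 3, WT 1 or WT 2 (adjusted p 0.0874 to 0.0938). Smad1 was also called in SCL KO, at 0.75 ± 0.16 (adjusted p = 0.0163), and not without SCL KO 3, WT 1 or WT 2 (adjusted p 0.0719 to 0.0874). Smad5 was called in DKO against LYL1 KO alone, at 0.46 ± 0.16 (adjusted p = 0.0409), and was lost without DKO 1, DKO 2 or any 1 LYL1 KO library (adjusted p 0.0726 to 0.159).

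Other identity genes of endothelium were mixed, with 4 of 24 tested rising and 7 falling in DKO against WT, beside 16.4% and 18.1% of all genes. Pecam1, the adhesion molecule of endothelium and platelets, was at 260.2, 231 and 167 CPM in DKO and 386, 338 and 254 CPM in SCL KO, against 958, 762 and 759 CPM in LYL1 KO libraries and 781, 796 and 625 CPM in WT libraries. Vwf, shared by endothelium and megakaryocytes, averaged 2432 ± 979 CPM in DKO and 6219 ± 215 CPM in WT libraries. Both fell in DKO against WT, with log2 fold changes of -1.74 ± 0.20 (adjusted p = 4.98e-05) and -1.35 ± 0.27 (adjusted p = 0.00238). Podxl, a sialomucin of endothelium, rose by 1.12 ± 0.19 (adjusted p = 0.000808), with 17.9 ± 4.76 CPM in DKO and 8.26 ± 0.825 CPM in WT libraries. S1pr1, the sphingosine phosphate receptor, rose by 1.85 ± 0.26 (adjusted p = 0.000245) in DKO and 1.10 ± 0.26 (adjusted p = 0.0313) in SCL KO against WT, the second lost on leaving out any 1 of the 6 libraries (adjusted p 0.0628 to 0.125). Cyyr1 rose by 2.28 ± 0.72 (adjusted p = 0.0279) in DKO against WT, and not without DKO 1, DKO 2 or WT 2 (adjusted p 0.0556 to 0.0844).

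By library, the 2 level classes behaved differently. The 16 higher genes summed to 861, 869.5 and 855 CPM in DKO, 1087, 1041 and 1001 CPM in SCL KO and 1294, 1287 and 1238 CPM in LYL1 KO libraries, against 1191, 1145 and 1064 CPM in WT libraries. In WT these sums rest mostly on Esam, Cd93 and Flt1, and the 3 DKO libraries were below all others. The 22 lower genes summed to 39.2, 43.6 and 40.3 CPM in DKO, 31.1, 40.4 and 34 CPM in SCL KO and 19.4, 28.4 and 23 CPM in LYL1 KO libraries, against 49.8, 60.1 and 25.7 CPM in WT libraries. For these, WT 1 and WT 2 were the 2 highest libraries and WT 3 was in the LYL1 KO range.

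WT 3 was under 0.5 times the lower of WT 1 and WT 2 for 17 of the 36 genes tested (47.2%), against 785 of all 15399 genes tested (5.10%). In the lower class this was 14 of 20 (70%), and in the higher class 3 of 16, Cdh5, Plvap and Stab2. No gene of the set was over 2 times the higher of WT 1 and WT 2 in WT 3, against 2.60% of all genes. WT 3 was picked for these counts after its levels were seen, and the shares over all genes are not matched for level. Some smooth muscle and pericyte markers had the same split, and others the opposite one. Their 10 genes summed to 17.8, 22.9 and 15.4 CPM in DKO, 30.2, 27.9 and 8.47 CPM in SCL KO and 8.18, 17.4 and 11.9 CPM in LYL1 KO libraries, against 50, 65.8 and 19.4 CPM in WT libraries, and in WT 3 5 of the 10 were under 0.5 times the lower and 2 over 2 times the higher of WT 1 and WT 2. Of these 10, 5 fell and none rose in DKO against WT, beside 18.1% and 16.4% of all genes. The 10 fibroblast and stroma markers summed to 21.5, 47.4 and 19.1 CPM in DKO, 348, 138 and 31.5 CPM in SCL KO and 12.2, 88.8 and 25.8 CPM in LYL1 KO libraries, against 146, 155 and 147 CPM in WT libraries, so that WT 3 was level with WT 1 and WT 2 in the sum, although 3 of the 8 tested were under the 0.5 line. Of these 8, Col1a1 and Col1a2 fell in DKO against WT and against SCL KO, beside 18.1% and 10.8% of all genes, and none rose. The 11 red cell markers summed to 353, 233 and 47.2 CPM in DKO, 845, 325 and 459 CPM in SCL KO and 1535, 1212 and 1643 CPM in LYL1 KO libraries, against 697, 672 and 594 CPM in WT libraries. Of the 8 tested, 1 rose and 4 fell in DKO against WT, beside 16.4% and 18.1% of all genes, and none was under the 0.5 line. The part of all these markers in the endothelial results was not tested.

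**Figure D4:**
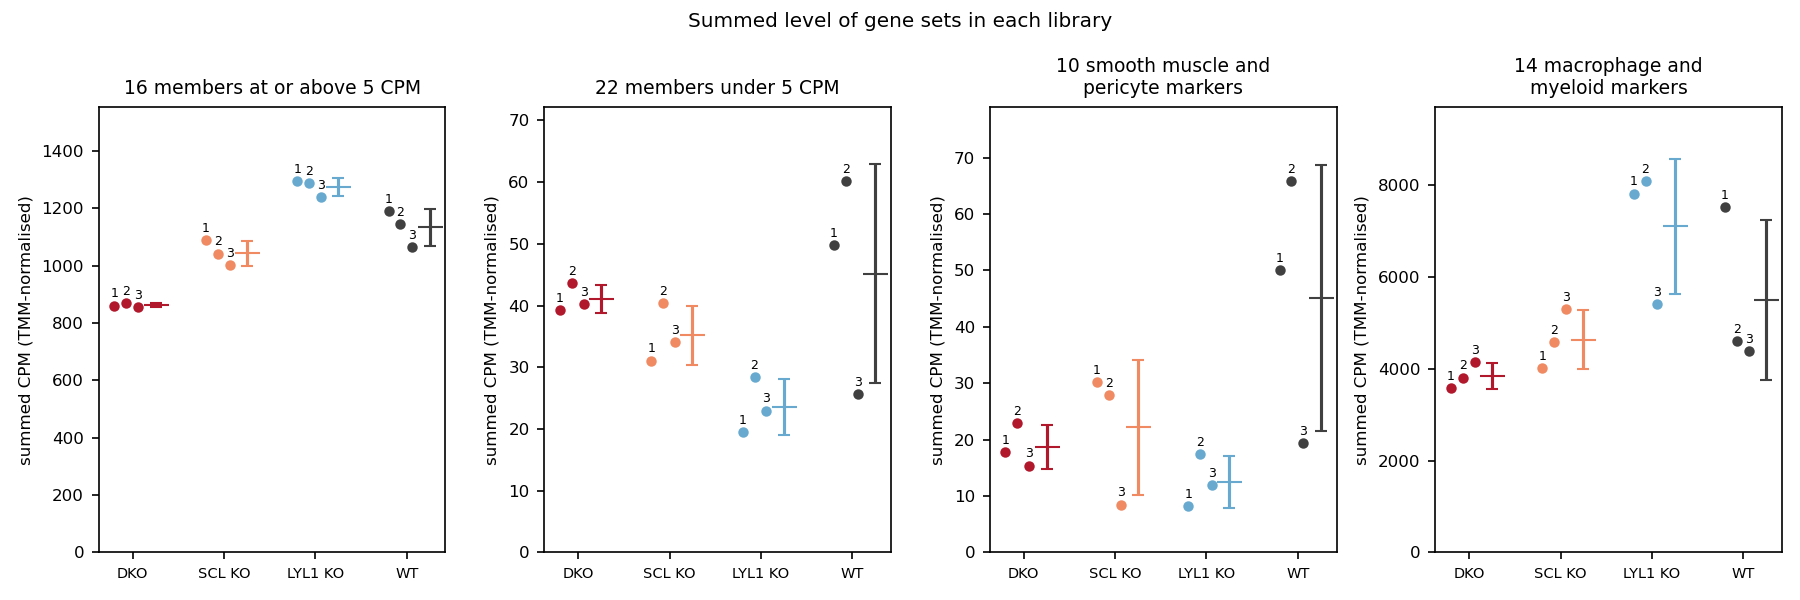
Summed TMM-normalised CPM in each library (points, numbered by replicate) with the mean ± SD of each genotype (n = 3), for the higher and lower endothelial classes, smooth muscle and pericyte markers, and macrophage markers. WT 1 and WT 2 are highest for the lower class and for smooth muscle and pericyte markers, with WT 3 well below them.

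For the lower class the median log2 fold change was -1.55 in DKO, -0.83 in SCL KO and -2.33 in LYL1 KO against WT, beside 0.0415, 0.0040 and -0.0022 over all genes tested. For the higher class the medians were -0.36, -0.25 and -0.06. These comparisons share the WT libraries. Some genes of the lower class passed the filter through libraries where they were high, WT 1 and WT 2 among them, which tilts medians against WT downwards. Filtered on only the libraries compared, 28 of the 36 genes were tested in LYL1 KO against WT and 32 in DKO against WT. The medians over all genes are not matched for level, so the lower-class medians are no evidence of a change. In LYL1 KO against WT, none of the 36 genes was called by edgeR, beside 0.0714% of all genes. DESeq2 called 1, Aplnr (2.78%), beside 0.669% of all genes, and edgeR called 3 without WT 3 (8.33%), beside 0.258%. The uncalled edgeR log2 fold changes there were -5.55 for Aplnr, -3.25 for Robo4, -2.85 for Nr2f2 and -2.80 for Cdh5. They were -2.76 for Ephb4, -2.39 for Mmrn2 and -2.88 for Sox7. Against WT, Mmrn2 and Sox7 fell further in DKO, Ephb4 was level and the others fell less. The calls alone thus do not place these lower levels in DKO only. In DKO against WT the 18 called genes became 7 without WT 2 (19.4%, beside 24.5% of all genes) and 11 without WT 1 (30.6%, beside 25.9%). They became 11 without DKO 2 (30.6%, beside 27.4%) and 24 without WT 3 (66.7%, beside 34.7%). The 7 were Stab2, Jag2, Icam2, Klf2, Efnb2, Lyve1 and Esam. Fitted on the 6 libraries compared, 32 of the genes were tested and 8 were called (25%), beside 24.4% of all genes in that fit. The 8 were Stab2, Jag2, Icam2, Efnb2, Lyve1, Esam, Cdh5 and Mmrn2. They were 4 higher and 4 lower (12.5% each), beside 10.8% and 13.5% of all genes, so the lower calls were not above the share there.

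Counts in other comparisons also moved with single libraries, for all genes as well as for the set. In SCL KO against WT no gene of the set was called on leaving out any 1 SCL KO library, 1 without WT 1 or WT 2, and 4 without WT 3. In DKO against SCL KO the 8 (22.2%) became 4 without SCL KO 1 (11.1%) and 5 without SCL KO 2 or DKO 2 (13.9%). In the same fits the share of all genes went from 19.1% to 10.3%, 10.6% and 12.7%. For the interaction the 5 (13.9%) became 3 (8.33%) without DKO 2, SCL KO 1, SCL KO 2, LYL1 KO 1, LYL1 KO 3 or WT 2. In the same fits the share of all genes went from 9.38% to between 4.21% and 6.12%. Without replicate 3 in every group, the calls ended for Efnb2 (adjusted p = 0.0609), Kdr (0.112) and Tek (0.0693) in DKO against WT, and for Icam2 (0.0967) and Kdr (0.0558) in DKO against LYL1 KO. With no filter on low counts they ended for Cdh5 (0.103) and Sox7 (0.056) in DKO against WT, for Stab2 (0.0772) and Nrp1 (0.173) in DKO against SCL KO, and for the interactions of Eng (0.0845), Esam (0.0869) and Stab2 (0.0805).

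Groups did not overlap for 12 of the 36 genes in DKO against WT, 6 higher and 6 lower, beside 42.5% of all genes tested. In SCL KO against WT it was 4, beside 22.4%, and in LYL1 KO against WT 5, beside 15.9%. In DKO against SCL KO it was 13, beside 33.4%, and against LYL1 KO 16, beside 49.7%. The counts were near or below the share over all genes, so that separation of the groups did not mark the set.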

How the data were processed

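Per the labels, total RNA from pooled embryos was made into strand-specific mRNA libraries. The deposited table holds unnormalised read counts for each gene in 12 libraries. The submitters' processing notes name STAR 2.5.2b, featureCounts, Subread 1.5.2, limma and the build GRCm38. Counts are for the reverse strand on Ensembl release 87 gene models, per the file headers. Other alignment options were not given in the sources used here.

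Ensembl identifiers gave symbols to 49326 genes and left 345 without. Genes passing edgeR's filter by group (minimum count 10, minimum total 15; 15399 of 26757 genes with any count) were tested in R 4.3.3 with edgeR 4.0.16 with its robust quasi-likelihood F-test, fitted once to all 12 libraries (TMM factors, group only). Adjusted p-values are Benjamini-Hochberg values of this test over all genes tested within a comparison, called under 0.05, and log2 fold changes are given ± standard error (SE). A count of 0 allows up to 3 counts, a limit for counting error alone, because PCR copies are not told apart from molecules. The test was checked on simulated data. No pair of libraries within a group agreed within sampling noise.

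The genes and the lists beside them were chosen with earlier results of these data known, as were the level class at 5 CPM and the letters searched. Levels by library were given for genes called in any of 6 comparisons, the 8 other members with the highest WT level and the endothelial defining markers. From each other list up to 5 called genes were named, by the smallest adjusted p. Replicate numbers were taken to pair samples where every same-numbered pair of deviations from the group means correlates over 0.1. This held between DKO and SCL KO (0.150 to 0.441) and not between other groups. Libraries with different numbers were not correlated for comparison, so passing the line does not show pairing. SCL KO and WT missed the line narrowly (0.099991 to 0.361), and the labels state no pairing. Alternatives were DESeq2 1.42.0 size factors or its Wald test, no filter, a replicate block, only the libraries compared, leaving out each library, and leaving out replicate 3 in every group. The use of WT 3 alone in the WT group, and the counts of genes low or high in WT 3, were chosen after seeing the data.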

Additional observations from a re-analysis of the deposited data

Results flagged for a closer look

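By edgeR's test of the interaction, the effect of Lyl1 knockout was called as different with and without Scl for 5 of 36 endothelial genes tested (13.9%). This was beside 9.38% of all genes. The interaction is DKO minus SCL KO less LYL1 KO minus WT on the log2 scale. It was 3.59 for Stab2, 1.96 for Jag2 and 0.68 for Eng, and -2.24 for Lyve1 and -1.76 for Esam. Stab2 and Jag2 had positive changes in DKO against SCL KO (2.18 and 1.49), and Esam and Lyve1 had negative ones (-1.70 and -2.87). The values for Eng and Esam were not called in most fits without 1 library, as given above. With no filter on low counts, those for Eng, Esam and Stab2 were not called.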

How the results depend on the processing

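Counts of called genes that moved were, over all genes, in LYL1 KO against WT 103 by DESeq2, 29 in only the libraries compared, 331 without replicate 3 in every group and 4 with WT 3 alone, against 11. In SCL KO against WT they were 1329 by DESeq2, 1226 with the replicate block, 1198 without replicate 3 in every group and 134 with WT 3 alone, against 774. In DKO against WT 2056 were called with WT 3 alone, against 5312. In DKO against SCL KO 1742 were called in only the libraries compared, against 2947, and for the interaction 2262 by DESeq2, against 1444. Among the endothelial genes, LYL1 KO against WT gave 1 by DESeq2, 1 with the replicate block and 3 without replicate 3 in every group, against 0. These were 2.78%, 2.78% and 8.33%, beside 0.669%, 0.104% and 2.12% of all genes in the same fits. SCL KO against WT gave 4 by DESeq2 (11.1%, beside 8.63% of all genes) and 5 with the block (13.9%, beside 7.96%), against 2. It gave 1 in only the libraries compared (2.78%, beside 3.95%) and 1 without replicate 3 in every group (2.78%, beside 7.68%). DKO against WT gave 8 of 32 tested in only the libraries compared (25%, beside 24.4% of all genes). This was against 18 of 36 (50%, beside 34.5%), and 21 were called with the block (58.3%, beside 38.8%). The interaction gave 2 without the filter (5.26%, beside 4.44% of all genes) and 8 by DESeq2 (22.2%, beside 14.7%). It gave 10 with the block (27.8%, beside 13.6%), against 5 (13.9%, beside 9.38%). The cause was not tested, except that fits on fewer libraries hold fewer samples. With WT 3 alone, which was chosen because it was low for many of these genes, WT is 1 library and the spread comes from the other genotypes, so those counts describe that library and test nothing.

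On leaving out 1 library, where a group of 2 is assumed to vary like the others, genes called ranged over 5 to 41 (LYL1 KO against WT), 388 to 955 (SCL KO against WT), 3899 to 5528 (DKO against WT), 1645 to 3222 (DKO against SCL KO), 3884 to 5162 (DKO against LYL1 KO) and 671 to 1925 (interaction). The endothelial genes called ranged over 0 to 3, 0 to 4, 7 to 24, 4 to 9, 9 to 13 and 3 to 7 in the same order. With WT 3 alone in WT, the log2 fold change in DKO turned to 0.36 for Cdh5, 1.11 for Robo4 and 0.78 for Sox7. Between DKO and SCL KO, the only groups over the 0.1 line for every same-numbered pair, the block ended the call of Nrp1 and no other. Same-numbered libraries of the other group pairs correlated from -0.0432 to 0.361 and did not all pass that line. With the block 15 endothelial genes (41.7%) were called in DKO against LYL1 KO, beside 39.2% of all genes. This was against 11 (30.6%), beside 35.2%. Depth limits genes under 1 CPM, where 3 counts are 0.0936 to 0.131 CPM.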
